A study of Mus musculus with 30 samples.

Results

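The 10 genes described here are the mouse 2'-5' oligoadenylate synthetase (OAS) genes Oas1a, Oas1b, Oas1c, Oas1d, Oas1e, Oas1f, Oas1g, Oas1h, Oas2 and Oas3. They were taken by symbol from 55011 genes in the mTEChi count files and from 35999 gene symbols in the Aire-GFP+ files of C57BL/6J mice (B6 below), and all 10 were found in both. The family list follows from gene names, but the grouping within it was selected on measured values: Oas1e was chosen by its loss in Aire-KO libraries under PBS in earlier results of these data, as a tissue-restricted paralog to set against the interferon-type ones. The study sequenced mRNA of medullary thymic epithelial cells (mTECs), and 21 of its 30 libraries are used here, all from female C57BL/6J mice 4 to 6 weeks old. Each library came from 1000 sorted cells, after depletion of CD45+ cells. The Aire-GFP+ cells comprise 2 libraries labelled Aire-KO and 3 labelled WT. The mTEChi libraries form 8 groups of 2, namely Aire-KO and WT mice injected with spermidine, Aire-KO and WT mice injected with PBS, WT mice injected with topotecan, WT mice injected with DMSO, and Foxn1-cre mice, with no injection given, carrying either Nfe2l2 fl/fl or wild-type Nfe2l2. All injections were intraperitoneal. Foxn1 is active in thymic epithelium, so the Cre recombinase of both Nfe2l2 groups is driven in that epithelium. The labels used here give neither the Aire knockout allele nor the doses. The 6 NOD and 3 F1 libraries were not analysed here.

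OAS proteins are sensors of double-stranded RNA. On binding it, the active members join ATP into 2'-5'-linked oligoadenylates (2-5A), a second messenger of antiviral defence. Type I and III interferons induce the classical members, so OAS transcripts are widely used as interferon-stimulated genes. Mice have an expanded set of Oas1 paralogs, several of which have been described as lacking synthetase activity. Aire is a transcriptional regulator of mature mTECs that is needed for much of their expression of genes otherwise restricted to particular peripheral tissues.

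On mm10, the assembly named in the submitters' processing notes, GENCODE M21 places the 10 genes in one cluster of 191320 bases, at chr5:120730333-120921652, with 4 genes on the plus strand and 6 on the minus strand. Oas2 (chr5:120730333-120749853, minus) opens the cluster, followed by Oas3 (chr5:120753098-120777661, minus) and Oas1e (chr5:120786226-120795530, minus). Next come Oas1c (chr5:120800194-120812514, minus) and Oas1b (chr5:120812635-120824163, plus), whose starts face each other across 120 bases. Oas1f (chr5:120847367-120857986, plus) and Oas1h (chr5:120861421-120873506, plus) lie beyond them. Oas1g (chr5:120876142-120887613, minus), Oas1a (chr5:120896256-120907521, minus) and Oas1d (chr5:120914536-120921652, plus) close the cluster. Oas1b carries the annotation of a polymorphic pseudogene, and its C57BL/6 allele is known to encode a truncated protein.

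The paralogs are alike enough that reads can be hard to place. The coding sequences of Oas1a and Oas1g were 96.73% identical. Taking for each member the transcript with the longest coding sequence, 68.84% of the 31-base words of Oas1a also occurred in another member. The same held for 65.38% of those of Oas1g. In WT Aire-GFP+ libraries most estimated counts of Oas1g and Oas1e lay on another transcript than the one taken. Oas1d and Oas1e were 90.6% identical in coding sequence. The share of words found in another member was 28.18% for Oas1e, 22.25% for Oas1c, 21.8% for Oas1d, 10.97% for Oas1f, 6.93% for Oas1h and 3.6% for Oas1b, and Oas2 and Oas3 shared none. Counts of Oas1a against Oas1g are therefore the least certain split within the family, and those of Oas2 and Oas3 the most certain. On the opposite strand, the span of Oas2 overlaps that of Gm43068, those of Oas1e and Oas1c overlap Gm43069, and that of Oas1f overlaps Gm22907. The library protocol does not mark strand, so reads from any shared exon bases could not be separated. Whether exons are shared was not checked.

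Because classical OAS genes are bound by interferon-activated factors at an interferon-stimulated response element, the sequence upstream of the start is shown for members where RefSeq's promoter table (GRCm38.p6) has an entry. It matched 6 of the 10 members by symbol, Oas3, Oas1c, Oas1f, Oas1h, Oas1g and Oas1a. Each line gives 120 bases outside annotated exons, 5′ to 3′ on the gene's own strand, with matches on either strand to GAAA, any 2 bases and GAAA, the core of that element, in capitals.
Oas1a (chr5:120907526-120907645, minus): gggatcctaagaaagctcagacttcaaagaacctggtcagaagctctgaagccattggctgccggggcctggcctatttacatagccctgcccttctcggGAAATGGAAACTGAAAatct
Oas1g (chr5:120887614-120887733, minus): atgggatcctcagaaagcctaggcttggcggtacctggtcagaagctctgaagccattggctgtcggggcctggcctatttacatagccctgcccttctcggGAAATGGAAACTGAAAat
Oas3 (chr5:120777662-120777781, minus): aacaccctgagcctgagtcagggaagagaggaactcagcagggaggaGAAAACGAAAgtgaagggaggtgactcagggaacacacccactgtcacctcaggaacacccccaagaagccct
Oas1c (chr5:120812515-120812634, minus): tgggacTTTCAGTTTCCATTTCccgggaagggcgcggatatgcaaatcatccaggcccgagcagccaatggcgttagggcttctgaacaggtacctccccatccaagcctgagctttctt
Oas1f (chr5:120847247-120847366, plus): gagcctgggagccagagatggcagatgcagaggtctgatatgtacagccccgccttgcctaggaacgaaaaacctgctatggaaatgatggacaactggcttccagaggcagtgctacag
Oas1h (chr5:120861301-120861420, plus): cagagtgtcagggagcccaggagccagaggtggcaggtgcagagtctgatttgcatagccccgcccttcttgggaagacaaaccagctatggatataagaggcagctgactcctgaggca
The run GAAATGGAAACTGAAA, made of a pair of overlapping matches, stood at -20 to -5 in Oas1a and -18 to -3 in Oas1g, counted so that the base just before the start is -1. In Oas3 the single match GAAAACGAAA stood at -75 to -66. The Oas1c line is the whole stretch between the Oas1c and Oas1b starts, and its capitals are the same run on the other strand, at -114 to -99 from Oas1c and at -22 to -7 from Oas1b. The motif's letters were not in the 250 bases upstream of Oas1f or Oas1h. Of all 32851 promoters in the table, 2.98% held the motif on either strand. TATAAA, held by 12.37% of those promoters, and a run of TG repeated 6 times, held by 0.88%, were found upstream of none of the 6 members.

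Library depth was 6615295 to 12682072 estimated counts in the Aire-GFP+ libraries and 2027205 to 5724045 counts in the mTEChi libraries. Levels are given as CPM, counts scaled to a common library size after TMM normalization, and replicates are libraries with no stated link to separate animals, so every p-value measures the spread between libraries only. In these bulk samples, fewer cells of a type and less RNA per cell cannot be told apart. Aire mRNA was not lower in the libraries labelled KO. It stood at 1508 and 1774 CPM in KO against 1603, 1686 and 1671 CPM in WT Aire-GFP+ cells, and at 5075 and 4156 CPM in KO against 1621 and 1638 CPM in WT mTEChi cells given PBS. Since the altered part of the allele is not given, Aire counts do not check the KO labels. Nfe2l2 mRNA differed by a log2 of 0.07 between Nfe2l2 fl/fl and wild-type libraries, and the same limit applies to it. All 10 mTEC markers (Epcam, Krt5, Krt8, Foxn1, Aire, Cd80, Cd40, Tnfrsf11a, Fezf2 and H2-Aa) were detected in every group.

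In Aire-GFP+ cells labelled Aire-KO, 8 of the 9 OAS genes tested fell, none rose, and all 10 had every KO library below every WT library. Of these 8, Oas1d, Oas1h and Oas2 had fewer than 10 counts over both KO libraries and passed the filter on low counts through WT libraries alone, as did the untested Oas1e, so the count is a description of the family. The falls ranged from 1.4-fold in Oas1a to 112-fold in Oas1d. Over all 17923 genes tested, 22.3% were called lower and 19.0% higher at an adjusted p below 0.05 (edgeR quasi-likelihood with Benjamini-Hochberg adjustment), and 34.6% had every KO library below every WT library. The median log2 fold change was -2.92 over the 10 members and -0.12 over all genes. With library totals in place of TMM the median over all genes was -0.51, and the calls over all genes moved from 3410 higher and 4000 lower to 1591 higher and 6250 lower, so the falls below are relative to that choice.

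Of the members tested, Oas1d and Oas1h had the largest falls. Oas1d, known for its expression in mouse oocytes, had 0.714 and 0.0946 CPM in KO libraries, against 28.1, 58.4 and 42.4 CPM in WT libraries. Every WT library was far above both KO libraries. The log2 fold change was -6.80 (SE 0.594, adjusted p = 0.000148). Oas1h had 1.07 and 0 CPM in KO libraries, against 35.7, 64.4 and 9.54 CPM in WT libraries. The WT libraries themselves spread widely, and the lowest of them still exceeded both KO libraries. Its log2 fold change was -6.20 (SE 1.13, adjusted p = 0.00357).

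Oas1e is the paralog that earlier results on these data had singled out, so its values are a description with no test. It had 0.119 and 0 CPM in KO libraries, a single count in all, against 37.2, 30.7 and 20.9 CPM in WT libraries, 838 counts in all. The WT over KO ratio of scaled counts was 545, with a 95% counting interval of 97.6 to 21556. Intervals of this kind cover counting error only, as the libraries carry no molecular identifiers. A single count was thus all that the KO libraries held of Oas1e.

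Oas1f and Oas1c showed falls of intermediate size. Oas1f had 2.26 and 2.46 CPM in KO libraries, against 16.6, 24.5 and 16.5 CPM in WT libraries, and its log2 fold change was -3.02 (SE 0.327, adjusted p = 0.000348). Its KO libraries were close to each other and far below every WT library. Oas1c had 3.21 and 0.379 CPM in KO libraries, against 8.85, 18.7 and 9.45 CPM in WT libraries, with a log2 fold change of -2.83 (SE 0.755, adjusted p = 0.0184). Its KO libraries differed widely from each other, and both lay below every WT library.

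The synthetases of the interferon response fell too, by less in 3 of 4 cases. Oas1a, an active synthetase, averaged 54.1 ± 1.72 CPM in KO libraries and 75.7 ± 2.28 CPM in WT libraries (SD, n = 2 and 3), a log2 fold change of -0.49 (SE 0.126, adjusted p = 0.0165). Oas1g, its near-identical neighbour, averaged 7.38 ± 0.674 CPM in KO and 18.5 ± 3.26 CPM in WT libraries, a log2 fold change of -1.32 (SE 0.262, adjusted p = 0.00513). Both were tight between replicates. Oas3, the longest member, whose human counterpart prefers long double-stranded RNA, had 10.4 and 8.71 CPM in KO libraries, against 18.5, 24.9 and 18.8 CPM in WT libraries, and its log2 fold change was -1.13 (SE 0.247, adjusted p = 0.00811). Oas2, a synthetase with a duplicated OAS unit, had 0.357 and 0.189 CPM in KO libraries, against 2.21, 6.79 and 7.18 CPM in WT libraries, the largest fall of these 4 at a log2 of -4.28 (SE 0.819, adjusted p = 0.00444). Its 3 and 2 estimated counts in KO libraries all lay on a retained-intron transcript. That transcript also held 11.1, 14.82 and 19.1 of the 16, 77 and 76 estimated counts of Oas2 in WT libraries.

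Oas1b was the single member tested that did not pass. It had 4.28 and 1.99 CPM in KO libraries, against 5.81, 6.17 and 6.33 CPM in WT libraries, a log2 fold change of -0.97 (SE 0.463, adjusted p = 0.127). The groups did not overlap, and the spread between the KO libraries was wide.

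**Figure D1:**
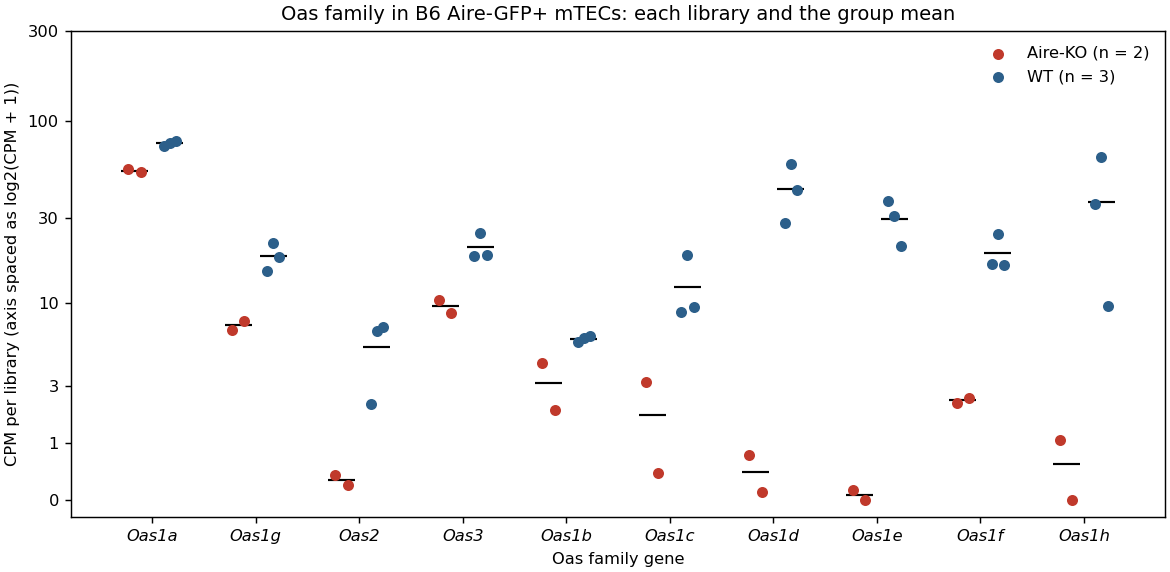
CPM of the 10 OAS genes in each Aire-GFP+ library, on an axis spaced as log2(CPM + 1), with the 2 Aire-KO libraries left of the 3 WT libraries for each gene. Every KO point lies below every WT point, with the groups closest in Oas1a and farthest apart in Oas1d, Oas1e and Oas1h.

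Removing 1 library changed some of these calls and values, and where it left 1 KO library, the fit assumed that this library varies like the WT libraries. Without KO replicate 2, 5 members were called, with Oas1a (-0.44), Oas1c (-1.93) and Oas3 (-0.99) no longer past the threshold. Oas1a and Oas3 kept nearly the same log2 fold change in that fit, which has fewer libraries. Oas1a was also not called without KO replicate 1 (-0.50), and Oas1c not without WT replicate 2 (-2.40), while its log2 fold change without KO replicate 1 was -4.97. Oas1d stood at -8.64 without KO replicate 1 and -5.88 without KO replicate 2. Oas1h stood at -5.07 without KO replicate 2 and -5.50 without WT replicate 2, and leaving out KO replicate 1 left a KO library with 0 counts. With limma-voom Oas1h was not called (-7.08), and with effective transcript lengths as offsets Oas1f stood at -2.37.

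Summing the family showed how its make-up differed between the genotypes. Oas1d, Oas1e, Oas1f and Oas1h together made up 4.92% and 3.43% of the summed CPM of the 10 members in KO libraries, against 48.6%, 53.6% and 39.3% in WT libraries. The sum over all 10 was 84.6 and 74.6 CPM in KO libraries, against 242, 332 and 227 CPM in WT libraries. Oas1a, Oas1g, Oas2 and Oas3 summed to 72.9 and 69.7 CPM in KO libraries, against 109, 129 and 122 CPM in WT libraries. The 4 synthetases thus held 86.2% and 93.4% of the family's CPM in KO libraries, against 45.3%, 39.0% and 53.7% in WT libraries. These sets were formed with earlier results known, so the shares are descriptions.

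**Figure D2:**
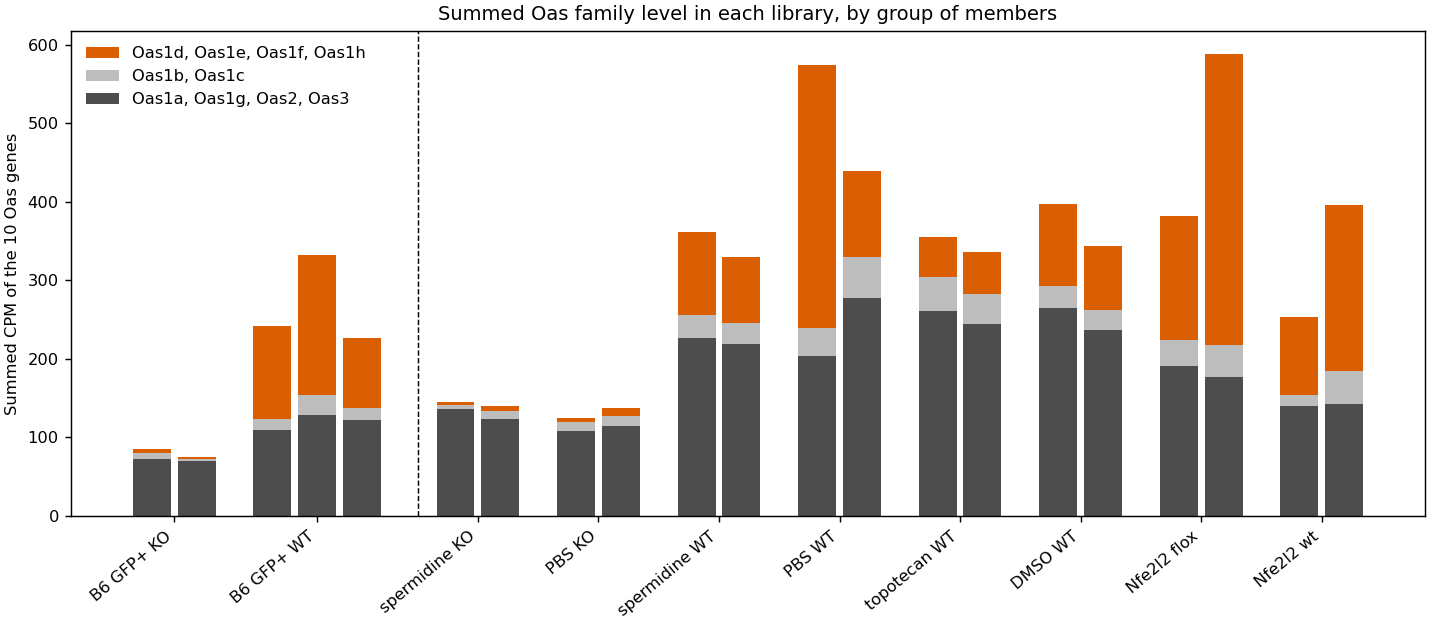
Summed CPM of the OAS genes in each library, stacked as Oas1a, Oas1g, Oas2 and Oas3, then Oas1b and Oas1c, then Oas1d, Oas1e, Oas1f and Oas1h, with KO or treated groups left of their controls. The stack of Oas1d, Oas1e, Oas1f and Oas1h is thin in every Aire-KO library and varies strongly among the others.

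Between genes, levels were compared per length, in TPM for Aire-GFP+ cells. In WT libraries Oas1a led at 50.7 ± 2.88 TPM (SD, n = 3), and then came Oas1h at 30.1 ± 23.4, Oas1d at 26.7 ± 9.72, Oas1e at 21.7 ± 5.46, Oas1g at 17.7 ± 3.9 and Oas1f at 17.0 ± 4.14 TPM. None of these 6 was separated from its neighbour in the order by its library values. Oas1c at 7.13 ± 2.61 TPM, Oas3 at 5.49 ± 0.735, Oas1b at 4.35 ± 0.114 and Oas2 at 2.06 ± 0.94 TPM followed, and the libraries did not overlap between Oas1f and Oas1c, between Oas3 and Oas1b, and between Oas1b and Oas2. In KO libraries the order was different. Oas1a at 25.5 ± 1.04 TPM and Oas1g at 5.15 ± 0.0411 TPM (SD, n = 2) came first, and Oas1e at 0.0417 TPM was last. Most estimated counts of Oas1g lay on a transcript annotated for nonsense-mediated decay, 60.2% and 68.0% in KO libraries against 72.2%, 75.8% and 74.0% in WT libraries.

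In mTEChi cells of mice given PBS, the members were lower in libraries labelled Aire-KO, described here with no test because this contrast was among the results that chose them. All 10 members had both KO libraries below both WT libraries, beside 29.7% of all 18418 genes, and 8 were at least 2-fold lower, beside 19.9% of all genes. The median log2 fold change was -2.14 over the members and -0.05 over all genes. The mTEChi and Aire-GFP+ tables were scaled apart, so levels are not set against each other.

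Oas1e was listed at 0 counts in both KO libraries, against 127 and 15.0 CPM (381 counts in all) in WT libraries, and so was at least 137-fold lower, taking 3 counts over the group as the limit that a count of 0 allows, or at least 26.1-fold lower without WT replicate 1. Oas1d had 1.3 and 1.04 CPM in KO libraries, against 103 and 18.0 CPM in WT libraries, a log2 fold change of -5.68 (SE 1.28). For both genes WT replicate 1 stood far above WT replicate 2, and without WT replicate 1 the Oas1d value was -3.91. Oas1h had 0.434 and 1.38 CPM in KO libraries, against 45.9 and 49.5 CPM in WT libraries, a log2 fold change of -5.58 (SE 1.03). Its WT libraries lay close together, and without KO replicate 2 the value was -6.66.

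The remaining values were smaller. Oas1c had 5.64 and 3.45 CPM in KO libraries, against 19.7 and 40.3 CPM in WT libraries (log2 -2.72), and Oas1f had 3.47 and 8.98 CPM in KO libraries, against 59.0 and 26.2 CPM in WT libraries (log2 -2.74). In Oas1f the groups came nearer to each other than in Oas1h, and its value was -3.62 without KO replicate 2 and -2.03 without WT replicate 1. Oas2 stood at 18.7 and 10 CPM in KO libraries, against 36.8 and 47.1 CPM in WT libraries (log2 -1.56), and Oas3 at 30.8 and 32.1 CPM in KO libraries, against 66.3 and 117 CPM in WT libraries (log2 -1.53). Oas1g at 11.3 and 14.9 CPM in KO libraries, against 34.2 and 40.3 CPM in WT libraries, gave a log2 of -1.50. Oas1b, at 6.94 and 7.95 CPM in KO libraries, against 15.7 and 13.1 CPM in WT libraries, and Oas1a, at 46.9 and 57.7 CPM in KO libraries, against 66.6 and 71.8 CPM in WT libraries, had the smallest values, at log2 -0.95 and -0.40.

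Spermidine, a polyamine, was given to the other Aire-KO and WT mice, and here all 10 members were tested. The 4 members Oas1b, Oas1d, Oas1h and Oas3, fell in KO libraries and none rose, beside 4.34% of all genes lower and 4.77% higher. At an unadjusted p below 0.05 there were 9 members, beside 23.6% of all genes, and all 10 again had both KO libraries below both WT libraries, beside 29.4% of all genes. Oas1b had 4.86 and 6.21 CPM in KO libraries, against 22.7 and 19.3 CPM in WT libraries, with a log2 fold change of -1.92 (SE 0.423, adjusted p = 0.0115). This was a wide gap between tight pairs. Oas3 had 48.6 and 49.7 CPM in KO libraries, against 95.2 and 81.9 CPM in WT libraries, with a log2 fold change of -0.85 (SE 0.229, adjusted p = 0.0322).

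The other 2 called genes had few counts in KO cells and passed the filter through other groups, so the count of 4 is a description. Oas1h had 0 and 1.04 CPM in KO libraries, 2 counts in all, against 21.2 and 42.9 CPM in WT libraries, 158 counts in all, a WT over KO ratio of 61.7 with a 95% counting interval of 16.8 to 514 (adjusted p = 0.00834). Oas1d had 0.486 and 0 CPM in KO libraries, 1 count in all, against 59.8 and 9.20 CPM in WT libraries, 190 counts in all, a ratio of 148 with a 95% counting interval of 26.3 to 5895 (adjusted p = 0.0273). The WT libraries of Oas1d lay far apart. Oas1e, at 0 and 1.04 CPM in KO libraries (2 counts), against 15.9 and 7.01 CPM in WT libraries (61 counts), had a ratio of 23.8 with a 95% counting interval of 6.32 to 201 and did not pass (adjusted p = 0.201).

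The other 5 did not pass either. Oas1a had 52.9 and 45.6 CPM in KO libraries, against 72.2 and 69.2 CPM in WT libraries (log2 -0.52, adjusted p = 0.13). Oas1g had 15.5 and 17.1 CPM in KO libraries, against 23.0 and 39.0 CPM in WT libraries (log2 -0.92, adjusted p = 0.0658), and Oas2 had 18.9 and 11.9 CPM in KO libraries, against 35.8 and 28.5 CPM in WT libraries (log2 -1.06, adjusted p = 0.0615). In these 3 synthetases the pairs were apart without overlap. Oas1c had 0.971 and 3.62 CPM in KO libraries, against 7.44 and 7.45 CPM in WT libraries (log2 -1.70, adjusted p = 0.254). Oas1f had 2.91 and 4.14 CPM in KO libraries, against 8.50 and 25.4 CPM in WT libraries (log2 -2.24, adjusted p = 0.143).

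None of the 4 calls under spermidine survived every removal of a library. No member was called without either KO library, 2 were called without WT replicate 1 and 3 without WT replicate 2, each fit assuming that the lone library varies like the other groups. The log2 fold change ranged over these removals from -2.10 to -1.75 for Oas1b and from -0.96 to -0.74 for Oas3. For Oas1d it was -5.0 without WT replicate 1, for Oas1h -4.89 without KO replicate 1, and for each of them leaving out the KO library that held the counts left one with 0. Limma-voom called 0 of the 10, and DESeq2 called 6, adding Oas1f and Oas2. Over all 18418 genes, limma-voom called 165 lower and DESeq2 1038 lower, against 799 lower with edgeR. Whether the genotype difference was another size under spermidine than under PBS was not tested.

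**Figure D3:**
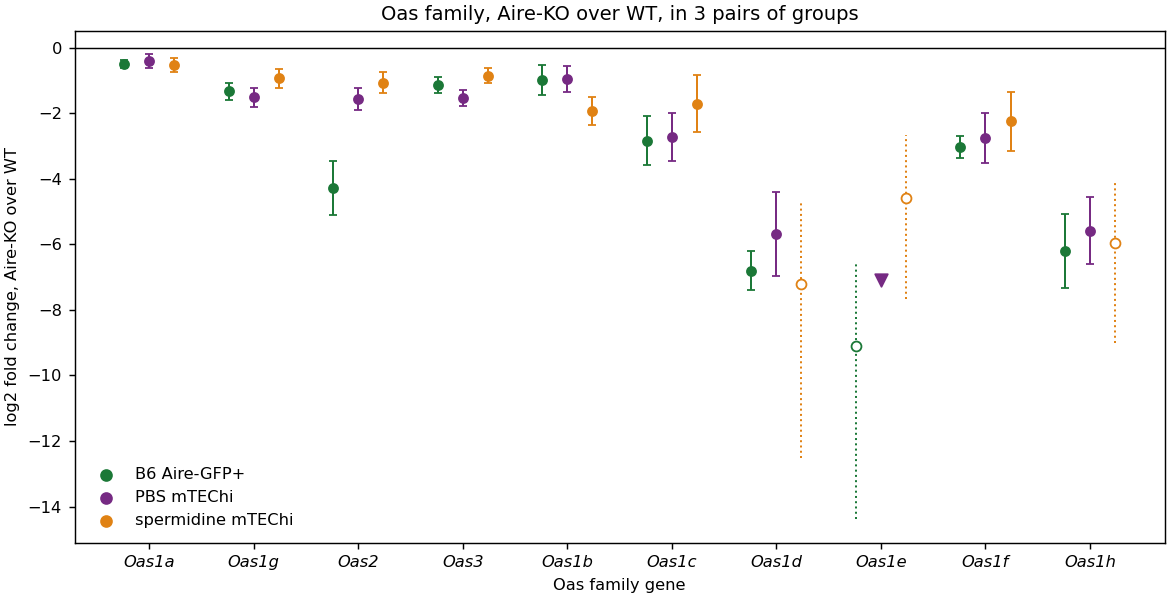
Log2 fold change, Aire-KO over WT, of the 10 OAS genes in the Aire-GFP+, PBS mTEChi and spermidine mTEChi comparisons. Filled points are fitted values with SE, open points with dotted bars are count ratios with 95% counting intervals where KO libraries held 1 to 3 counts, and the triangle is the bound for Oas1e at 0 counts. All values lie below 0, from Oas1a nearest to it to Oas1d, Oas1e and Oas1h farthest from it.

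Levels across all mTEChi libraries placed the genotype differences against the range in the other libraries. In the 4 Aire-KO libraries Oas1d ranged from 0 to 1.3 CPM, against 1.32 to 205 CPM in the 12 others. Oas1h ranged from 0 to 1.38 CPM in the KO libraries, against 1.96 to 49.5 CPM in the 12 others. Oas1a ranged from 45.6 to 57.7 CPM in the KO libraries, against 63.5 to 96.5 CPM in the 12 others. These 3 genes were the members whose ranges did not overlap, and in Oas1d the gap was narrower than the worth of 1 count. The share of all genes with such a split between the 4 and the 12 libraries was not determined, so the 3 are a description. The other 7 overlapped, Oas1e among them, at 0 to 1.04 CPM in the KO libraries, against 0.573 to 127 CPM in the 12 others.

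**Figure D4:**
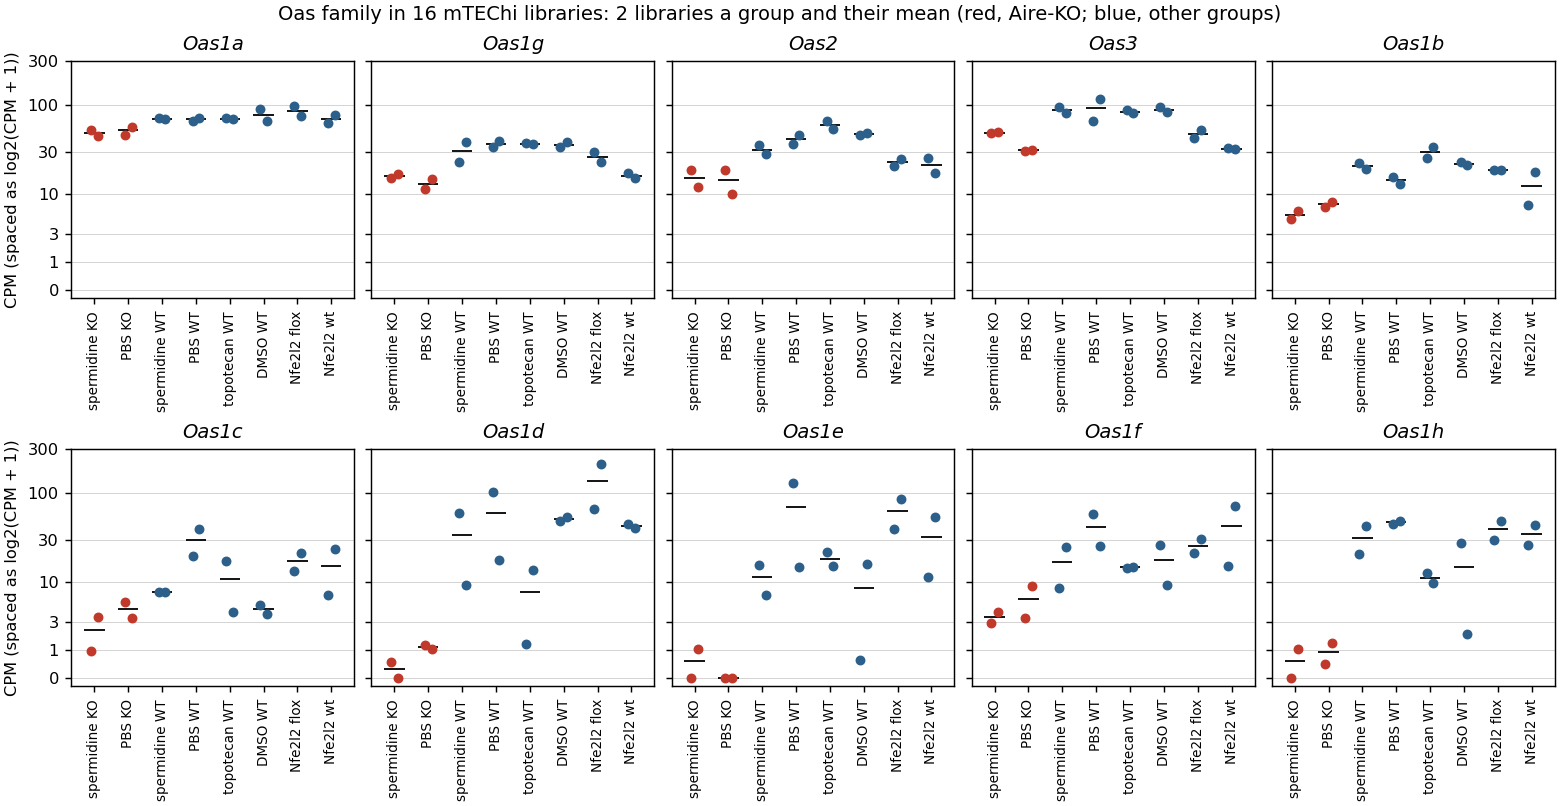
CPM of each OAS gene in the 16 mTEChi libraries, on an axis spaced as log2(CPM + 1), with KO or treated groups left of their controls, 1 point per library and a bar at the mean. Oas1a runs level across the groups with a modest drop in the 4 Aire-KO libraries, while Oas1d, Oas1e and Oas1h sit near 0 in those libraries and scatter widely elsewhere.

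Per kilobase of exon, the 6 libraries of WT mice given PBS or DMSO and of wild-type Nfe2l2 mice had Oas1a first at 38.5 ± 5.13 CPM per kb (SD, n = 6). Oas1e at 20.8 ± 26.5 CPM per kb had an SD larger than its mean, and Oas1c at 6.91 CPM per kb was last. All neighbours in that order overlapped. In the 4 Aire-KO libraries Oas1a stood at 26.9 ± 2.99 CPM per kb (SD, n = 4), Oas1g came next at 6.28 CPM per kb, and Oas1e was last at 0.144 CPM per kb.

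The members differed in how steady they were between libraries of one group. Over the 6 mTEChi groups not labelled Aire-KO, the higher library over the lower had a median ratio of 1.15 for Oas1a (range 1.01 to 1.35), 1.16 for Oas1g (1.02 to 1.69), 1.23 for Oas2 (1.04 to 1.47) and 1.15 for Oas3 (1.01 to 1.77). Oas1b at 1.19 (1.01 to 2.45) was close to these. Oas1d had a median ratio of 4.4 (1.11 to 10.3), Oas1e of 3.54 (1.43 to 28.4), Oas1f of 2.57 (1.03 to 4.65), Oas1c of 1.84 (1.0 to 4.24) and Oas1h of 1.66 (1.08 to 14.2). Over 13977 genes with a mean of at least 5 CPM, the median ratio was 1.23 and the 95th percentile 2.04. Oas1d, Oas1e and Oas1f thus lay beyond that percentile, and the synthetases lay at or below the median. Within the 3 Aire-GFP+ WT libraries the split was not the same. There the coefficient of variation was 75.1% for Oas1h, 51.2% for Oas2, 44.7% for Oas1c, 35.3% for Oas1d, 27.7% for Oas1e and 23.9% for Oas1f, and 17.7% or less for Oas1a, Oas1b, Oas1g and Oas3.

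**Figure D5:**
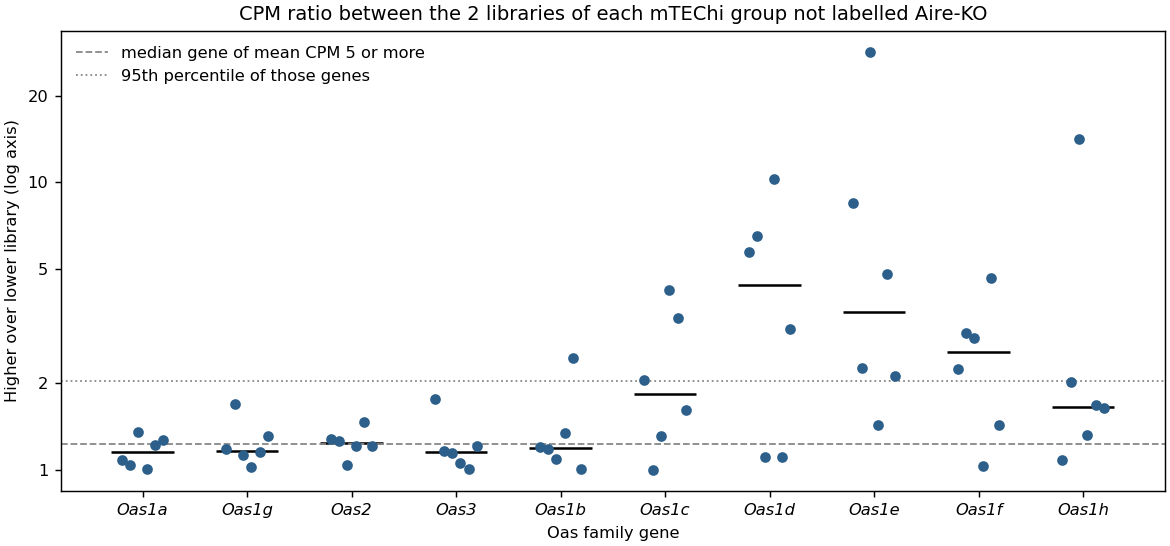
Ratio of the higher to the lower library, on a log axis, for each OAS gene in the 6 mTEChi groups not labelled Aire-KO, with a bar at each gene's median and lines at the median (1.23) and 95th percentile (2.04) of 13977 genes. Oas1d, Oas1e and Oas1f have medians above the 95th percentile line, and Oas1a, Oas1g, Oas2 and Oas3 have medians at or below the median line.

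Across the 12 mTEChi libraries not labelled Aire-KO, which form 6 groups of 2, log2 levels of some members moved together, given as a description. Pearson's r was 0.81 between Oas2 and Oas3, 0.79 between Oas1g and Oas3, and 0.73 between Oas1g and Oas2. Among the others it was 0.71 between Oas1f and Oas1h, 0.65 between Oas1c and Oas1h, and 0.61 between Oas1c and Oas1f. Libraries of the Nfe2l2 groups held 32.8 to 52.5 CPM of Oas3, against 66.3 to 117 CPM in the other groups. For Oas2 these ranges were 17.4 to 25.7 and 28.5 to 65.9 CPM, and for Oas1g 15.1 to 30.3 and 23.0 to 40.3 CPM. The part of this step in the r values was not tested. Oas1a and Oas1g, which share most of their sequence and the run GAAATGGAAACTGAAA shown above, had an r of -0.03. Over all 16 mTEChi libraries and 13977 genes, genes nearest to Oas1e included Ly6d (0.89), Actr3b (0.889), Napsa (0.87) and Lefty2 (0.864). Nearest to Oas1a were Wls (0.891), Ephx1 (0.882), Aldh3a1 (0.881), Car12 (0.879) and Gmpr (0.873), and nearest to Oas3 were D630003M21Rik (0.941), Trim30a (0.937), Lrp1 (0.924), Pstpip1 (0.919) and Fat2 (0.918). The genes named for each differed among Oas1e, Oas1a and Oas3, and the 4 Aire-KO libraries weigh on all of these values.

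Spermidine alone, against PBS in WT mTEChi cells, gave no call among the members or among all genes (0.0%) with edgeR, and none among the members with DESeq2 or limma-voom. Of the members other than Oas1e, Oas1c was the 1 at an unadjusted p below 0.05, beside 3.85% of all genes. Oas1e was chosen by values that include these PBS WT libraries, so it is given with no test. It had 15.9 and 7.01 CPM under spermidine, against 127 and 15.0 CPM under PBS (log2 -2.62). Oas1c had 7.44 and 7.45 CPM under spermidine, against 19.7 and 40.3 CPM under PBS (log2 -2.00, adjusted p = 0.999). The Oas1e groups overlapped, the Oas1c groups did not. Oas1c, Oas1f, Oas1h and Oas2 lay lower under spermidine without overlap, beside 16.7% of all genes, and Oas1b lay higher, beside 16%.

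In Aire-KO mTEChi cells, spermidine against PBS again gave no call among the members with edgeR, beside 0.00543% of all genes. DESeq2 and limma-voom also called no member, beside 8 and 1 of all 18418 genes. Oas3 was the 1 member at an unadjusted p below 0.05, beside 4.12% of all genes, with 48.6 and 49.7 CPM under spermidine, against 30.8 and 32.1 CPM under PBS (log2 0.64, adjusted p = 1.0). Its pairs were tight and did not overlap. Oas1g and Oas3 lay higher without overlap, beside 17.5% of all genes, and Oas1b and Oas1d lower, beside 18.5%. Oas1e was at 2 counts under spermidine and 0 under PBS, too few for a fold.

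Topotecan, a topoisomerase I inhibitor, was set against DMSO, and no member was called with edgeR, beside 0.652% of all genes. DESeq2 and limma-voom also called no member, beside 415 and 60 of all 18418 genes. Aire mRNA fell, with 819 and 641 CPM under topotecan, against 1500 and 1180 CPM under DMSO (log2 -0.88, SE 0.136, adjusted p = 0.0125). That call came from the fit over all mTEChi libraries. With the topotecan and DMSO libraries fitted alone, 0 of 16190 genes were called lower, Aire included. Oas1d was the 1 member at an unadjusted p below 0.05, a share of members near the 13.9% of all genes, with 1.32 and 13.7 CPM under topotecan, against 49.0 and 54.4 CPM under DMSO (log2 -2.76, SE 0.931, adjusted p = 0.193). The topotecan libraries lay far apart and both were below the DMSO libraries, as 19.8% of all genes were. Oas1b, at 25.8 and 34.7 CPM under topotecan against 23.2 and 21.3 CPM under DMSO, and Oas2, at 65.9 and 54.5 against 46.7 and 48.8 CPM, lay higher without overlap, beside 19.9% of all genes. Oas1e had 21.9 and 15.3 CPM under topotecan, against 0.573 and 16.3 CPM under DMSO, where a single DMSO library was nearly without it.

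Foxn1-cre Nfe2l2 fl/fl libraries were set against those with wild-type Nfe2l2, the gene of the oxidative stress factor NRF2, with no call among the members or among all genes (0.0%) with edgeR, and none among the members with DESeq2 or limma-voom. At an unadjusted p below 0.05 there were 2 members, beside 5.28% of all genes. Oas1g had 30.3 and 23.2 CPM in Nfe2l2 fl/fl libraries, against 17.4 and 15.1 CPM in wild-type Nfe2l2 libraries (log2 0.71). Oas3 had 43.4 and 52.5 CPM in Nfe2l2 fl/fl libraries, against 33.2 and 32.8 CPM in wild-type Nfe2l2 libraries (log2 0.54). Both pairs were apart. Oas1b and Oas1d also lay higher in Nfe2l2 fl/fl libraries without overlap, so 4 members did, beside 16.5% of all genes, and none lay lower, beside 17.4%. Oas1d had 66.4 and 205 CPM in Nfe2l2 fl/fl libraries, against 45.9 and 41.2 CPM in wild-type Nfe2l2 libraries.

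Oasl1 and Oasl2, OAS-like genes outside the cluster, fell in KO libraries of Aire-GFP+ cells. Oasl1 had 26.7 and 40.3 CPM in KO libraries, against 56.4, 102 and 96.1 CPM in WT libraries (log2 -1.34, adjusted p = 0.00723). Oasl2 had 188 and 166 CPM in KO libraries, against 230, 223 and 242 CPM in WT libraries (log2 -0.38, adjusted p = 0.0229). Neither gene's groups overlapped. Pde12, which in human cells degrades 2-5A, and Abce1 did not pass. Under spermidine Oasl2 fell in KO libraries, with 308 and 301 CPM, against 481 and 417 CPM in WT libraries (log2 -0.56, adjusted p = 0.0105), and Oasl1 did not pass, with 123 and 67.8 CPM in KO libraries, against 148 and 110 CPM in WT libraries (log2 -0.44, adjusted p = 0.49).

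Among sensors, ligands and signalling genes of the interferon system, calls went in both directions, beside 22.3% of all genes lower and 19.0% higher in Aire-GFP+ cells. There, 3 of 8 genes of double-stranded RNA sensing fell in KO libraries and none rose, namely Mavs, the adaptor of the RIG-I-like receptors (log2 -0.97), Ddx58, which encodes RIG-I (-0.75), and Dhx58, which encodes LGP2 (-0.48). Of 12 interferon ligands and receptors, 9 were tested, of which Ifnl2 (-1.70), Ifngr2 (-1.41) and Ifnar2 (-0.52) fell and Ifngr1 (0.49) rose. Of the signalling genes, Irf7 (-2.36) and Stat2 (-0.71) were among those that fell, and Jak2 (0.66) and Jak1 (0.50) rose. Ifnb1 was at 0 in KO libraries of the Aire-GFP+, PBS and spermidine comparisons, and also in the WT libraries given DMSO. It averaged 0.714 CPM in WT Aire-GFP+ cells, a level near the limit of these libraries. Under spermidine, Ddx58 fell (-0.66) as 1 of 8 sensing genes, no ligand or receptor passed, and of 11 signalling genes Socs1 (0.94), Irf1 (0.85) and Jak1 (0.50) rose in KO libraries and Irf7 (-0.81) fell.

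Other interferon-stimulated genes were lower in KO cells as well, although not all. In Aire-GFP+ cells, 10 of 18 fell and 2 rose in KO libraries, with a median log2 fold change of -2.02 beside -0.12 over all genes. Isg15, a ubiquitin-like modifier, averaged 1.38 ± 0.598 CPM in KO libraries and 22.2 ± 8.27 CPM in WT libraries (log2 -3.98, adjusted p = 0.000526, n = 2 and 3). Ifit3 (-3.58) and Rsad2 (-3.57), which encodes viperin, followed, and Ifi35 (1.23) and Ifit1 (0.77) rose. Ifi35 averaged 348 ± 2.52 CPM in KO libraries and 148 ± 3.62 CPM in WT libraries, more than most of the genes that fell, and the summed level of the 18 was 827 to 846 CPM in KO libraries, against 663 to 782 CPM in WT libraries. Under spermidine, 8 of 18 fell and 1 rose in KO libraries (median -0.80 beside -0.04), with Rsad2 (-2.03), Cmpk2 (-1.85) and Ddx60 (-1.29) the largest falls and Ifit1 (0.55) the rise. There the sum was 886 to 937 CPM in KO libraries, against 1022 to 1230 CPM in WT libraries. Under PBS the median was -1.30 beside -0.05, with no test.

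Calls among markers of other cells are read beside 22.3% of all genes lower and 19.0% higher in Aire-GFP+ cells. In Aire-GFP+ cells 4 of 9 myeloid and dendritic markers tested fell in KO libraries and 2 rose, with a median log2 of -1.28, while all 10, each detected, summed to 2195 to 2213 CPM in KO libraries, against 1033 to 1429 CPM in WT libraries. List and sum thus went in opposite directions. Of 5 B cell markers 1 rose and 1 fell (median -0.86), a share each way near that of all genes. Their sum was 80.8 to 94.4 CPM in KO libraries, against 43.3 to 51.8 CPM in WT libraries. Of 6 fibroblast markers tested 2 rose and 2 fell (median -1.20), and the sum of all 7 was 264 to 344 CPM in KO libraries, against 87.6 to 136 CPM in WT libraries. Here too the sums do not speak for most of the genes. Of 10 mTEC markers 5 rose and 2 fell, with a sum of 24036 to 27016 CPM in KO libraries, against 13148 to 13454 CPM in WT libraries. Of 9 thymocyte markers 1 fell, a smaller share than over all genes. The thymocyte sum was 30.9 to 44.6 CPM in KO libraries, against 57.3 to 79.5 CPM in WT libraries. In mTEChi cells given PBS, the myeloid and dendritic sum overlapped, at 1136 to 1673 CPM in KO libraries, against 1348 to 1404 CPM in WT libraries, while the mTEC sum was higher in KO libraries, at 20548 to 21320 CPM, against 11561 to 11699 CPM in WT libraries. The part of these differences in the OAS values was not tested. As Oas1d is known from oocytes, 6 oocyte genes were read too. In Aire-GFP+ cells 3 of them fell and 2 rose in KO libraries, with a median log2 of -1.16. Their sum was higher there, at 244 to 301 CPM in KO libraries, against 111 to 132 CPM in WT libraries. In PBS KO libraries Oosp1 was at 0 and the median log2 was -4.21. The PBS sum was 291 to 330 CPM in KO libraries, against 127 to 185 CPM in WT libraries.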

How the data were processed

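mRNA was sequenced by a Smart-seq2 and Nextera XT protocol without strand marking or molecular identifiers, per the labels' protocols. The submitters' processing notes name STAR, featureCounts, kallisto, TopHat2 2.1.1, SAMtools 1.3.1 and mm10, with no role or order. The authors deposited raw gene counts for each mTEChi library, and transcript tables with kallisto's estimated counts, effective lengths and TPM for each Aire-GFP+ library. Estimated counts of 118489 transcripts were matched to GENCODE M21 (116816 matched, and the other 1673 held 0.541% to 0.578% of the deposited counts), summed to 35999 symbols and rounded. Deposited TPM values were summed likewise.

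Counts were fitted with edgeR 4.0.16 (quasi-likelihood, TMM, filterByExpr with a minimum count of 10, Benjamini-Hochberg over all genes passing, called at adjusted p below 0.05) in R 4.3.3. The 16 mTEChi libraries were fitted together with a mean per group (18418 genes tested), and the 5 Aire-GFP+ libraries apart (17923). All genes of a comparison entered its adjustment, and the scripts were tested on simulated counts first. Depth was 2027205 to 12682072 counts a library, which limits the precision of genes with few counts. Alternatives were DESeq2 1.42.0, limma-voom (limma 3.58.1), DESeq2 size factors, library totals, no low-count filter, the replicate number as a block, Oas1a and Oas1g summed, each experiment fitted alone, effective lengths as offsets, and leaving out each library.

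The members, the gene lists, the sets Oas1a, Oas1g, Oas2, Oas3 and Oas1d, Oas1e, Oas1f, Oas1h, and the tests were chosen with earlier results of these data known. Members were therefore given no test in the PBS comparison, nor Oas1e in the Aire-GFP+ one or in spermidine against PBS in WT cells. All 10 members were named throughout, with the targeted genes, Oasl1 and Oasl2, up to 3 called genes per list and direction by size, and for Oas1e, Oas1a and Oas3 the 5 genes of mean CPM at least 5 with the highest Pearson's r of log2(CPM + 1). A few results under this rule are not reported here. Coding identity used GENCODE M21 transcripts with Biopython 1.88. Planned protein comparisons were not run, and NOD and F1 libraries were not used here.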

Additional observations from a re-analysis of the deposited data

Results flagged for a closer look

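Oas1b, the truncated paralog, lay on opposite sides under spermidine in the 2 genotypes, with every library following its group. In Aire-KO mTEChi cells it had 4.86 and 6.21 CPM under spermidine, against 6.94 and 7.95 CPM under PBS, a log2 difference of -0.43. In WT mTEChi cells it had 22.7 and 19.3 CPM under spermidine, against 15.7 and 13.1 CPM under PBS, a log2 difference of 0.54. Neither value passed the threshold, and the difference between the genotypes was not tested. Oas1b was picked from all members by this pattern. Groups without overlap were common among all genes in both comparisons, at the shares given with the spermidine results above. The opposite sides are therefore a description. The share of all genes with opposite sides in the genotypes was not determined.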

How the results depend on the processing

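The count followed here was of members called, or under PBS, where none was tested, of members at least 2-fold lower. It stayed within 1.5 times in 49 refits of the 7 comparisons and moved beyond it in 7, not counting those that left out a library. Of the 7, 6 follow here and the topotecan fit with the replicate block follows below, and the cause was not tested. In the spermidine comparison of KO with WT, 4 members were called, against 7 with library totals, 0 with limma-voom and 7 without the low-count filter. Over all genes, the calls lower were 799, against 1081, 165 and 1544 in the same order. The last was out of 46903 genes and the others out of 18418. Without that filter, 1 member was called, against 0, for spermidine against PBS in WT cells (Oas1e, -2.61), topotecan (Oas1d, -2.83) and Nfe2l2 fl/fl (Oas1d, 1.67). Those 3 fits called 111, 1006 and 134 of 46903 genes, in that order. Oas1e was chosen by values that include the PBS WT libraries, so its call under spermidine is a description. Leaving out each library gave 5 to 8 members in Aire-GFP+ cells, 8 to 9 of at least 2-fold under PBS, 0 to 3 for KO against WT under spermidine and 0 to 0 in the other 4 comparisons.

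Same-numbered libraries did not deviate together (correlations 0.023 and 0.026 in Aire-GFP+ cells, -0.01 to 0.05 in mTEChi cells), so the numbers were not taken as pairs. With the replicate block, 7 members were called in Aire-GFP+ cells, with Oas1a lost (-0.46), and 4 in the spermidine comparison of KO with WT. Under PBS, where members were not tested, 8 were at least 2-fold lower with the block. Under topotecan 1 was called, Oas1d (-2.97), and Oas1h stood at 0.11, against -0.42 without the block. It changed no other call.

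All reversals were of values that passed no threshold. Oas3 under spermidine in WT cells stood at 0.05 with limma-voom, and under topotecan Oas1h at 0.55 with limma-voom and Oas1g at -0.04 without the filter. Removing libraries gave ranges across 0 in several members. For spermidine in WT cells they were -0.02 to 0.09 in Oas1a, -2.73 to 0.97 in Oas1d, -0.69 to 0.06 in Oas1g and -0.41 to 0.42 in Oas3. For spermidine in KO cells they were -0.23 to 0.07 in Oas1a, -1.35 to 0.02 in Oas1f, -4.70 to 0.20 in Oas1h and -0.27 to 0.62 in Oas2. For topotecan they were -0.38 to 0.08 in Oas1a, -0.14 to 1.94 in Oas1c, -0.89 to 0.66 in Oas1f, -0.06 to 0.09 in Oas1g, -1.37 to 2.46 in Oas1h and -0.20 to 0.02 in Oas3. For Nfe2l2 they were -0.44 to 1.31 in Oas1c, -1.46 to 0.76 in Oas1f, -0.23 to 0.60 in Oas1h and -0.14 to 0.42 in Oas2.

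With library totals Oas1b was also called in Aire-GFP+ cells (-1.36). The order of levels in WT Aire-GFP+ cells differed between TPM and CPM per kb of exon for Oas1b, Oas1f, Oas1g and Oas3. Groups of 2 libraries, low counts of Oas1d, Oas1e and Oas1h in KO cells and the shared sequence of Oas1a and Oas1g are limits on these results, although summing Oas1a and Oas1g moved no count of calls beyond 1.5 times.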
